A study of Homo sapiens with 3 samples.

Results

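The miR-26 and miR-101 guide strands were followed across 3 small RNA libraries of CAL-27, an established line from a human squamous cell carcinoma of the tongue. The set holds hsa-miR-26a-5p, hsa-miR-26b-5p and hsa-miR-101-3p, chosen by name as miRNAs known to repress EZH2, and all 3 were found among the 1149 mature miRNAs of the deposited table. RR was the radioresistant group, given X-rays of 2 Gy a day for 5 days in each of 2 cycles, each followed by 2 weeks of recovery, and cloned from single cells. Mock stands, by the series' design text, for cells given 2 Gy of X-rays in a single exposure. CC was an untreated control, also established from the parental cells as clones. Each group has 1 library, so differences cannot be checked against replicates and p-values are not given, and the labels do not tell how many clones went into a library. The treatment tag that names a 2 Gy dose stands on RR and the tag for irradiation without a dose stands on Mock, so which of these libraries is which rests on the titles. Directions given for RR and Mock refer to the libraries so titled.

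EZH2 is the catalytic subunit of Polycomb repressive complex PRC2, which methylates histone tails and keeps genes silent. A miRNA guides an Argonaute protein to mRNAs that pair with its seed, the bases near its 5′ end, and miR-26 and miR-101 pair with the 3′ UTR of EZH2. Loss of miR-101 is known from tumours with high EZH2, and miR-101 is also reported to target the DNA repair kinases ATM and DNA-PKcs. Neither EZH2 nor any other mRNA was measured in these libraries.

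The mature sequences are shown because the seed, bases 2 to 8 in capitals, sorts the set into 2 target families. They are RefSeq entries (GRCh38.p14), written 5′ to 3′, and equal the sequences in the deposited table. miR-144-3p is printed beside miR-101-3p as a relative that shares bases 2 to 7.
hsa-miR-26a-5p: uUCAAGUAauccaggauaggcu
hsa-miR-26b-5p: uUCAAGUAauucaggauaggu
hsa-miR-101-3p: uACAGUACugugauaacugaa
hsa-miR-144-3p: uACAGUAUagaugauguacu
miR-26a-5p and miR-26b-5p share the seed UCAAGUA. Counted from 1 at the 5′ end, miR-26b-5p differs from miR-26a-5p by C11U and C21U and is 21 bases long, against 22. No other listed miRNA had either seed over bases 2 to 8.

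The miRNAs come from 5 hairpins, and all 3 miR-26 hairpins lie inside genes for small phosphatases of the RNA polymerase II tail. On GRCh38, MIR26A1 lies on chromosome 3 (chr3:37969404-37969480, plus strand) in an intron of CTDSPL, and MIR26A2 on chromosome 12 (chr12:57824609-57824692, minus strand) in an intron of CTDSP2. Both give the same miR-26a-5p. MIR26B lies on chromosome 2 (chr2:218402646-218402722, plus strand) in an intron of CTDSP1. miR-101-3p is found in MIR101-1 on chromosome 1 (chr1:65058434-65058508, minus strand), which overlaps no protein-coding gene, and in MIR101-2 on chromosome 9 (chr9:4850297-4850375, plus strand), in an intron of RCL1. Host genes are those of GENCODE 29, and each lies on the strand of its hairpin.

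The EZH2 3′ UTR holds a match to each seed. The set was chosen by name as miRNAs known to repress EZH2, so these matches describe it and are not further evidence. In the 261 bases of the annotated 3′ UTR, the heptamer TACTTGA, which pairs with bases 2 to 8 of both miR-26 strands, occurs 1 time, and GTACTGT, which pairs with those of miR-101-3p, occurs 2 times. Each window below gives 27 bases of the mRNA strand (chromosome 7, minus strand, GRCh38) with the heptamer in capitals.
miR-26 match, chr7:148807386-148807412: aactttgaataaagaaTACTTGAactt
miR-101 match, chr7:148807577-148807603: gcttcaggaacctcgaGTACTGTgggc
miR-101 match, chr7:148807522-148807548: attctgaatttgcaaaGTACTGTaaga
The heptamers do not overlap each other, and only the mRNA strand was searched. Among 1638 3′ UTRs of similar length (1 transcript a gene), 2.14% held TACTTGA and 1.77% held GTACTGT. EED, another PRC2 subunit, had 1 match to miR-101-3p and none to miR-26, and SUZ12 had none to either. In the 3594 bases of the ATM 3′ UTR, TACTTGA occurred 2 times and GTACTGT 1 time, where 24.9% and 21.1% of 1722 3′ UTRs of similar length held them. PRKDC, which encodes DNA-PKcs, had neither. A match is a stretch of letters and does not show that a site is used.

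Computed from the value of a single read, the library totals were between 10473400 and 10769990 reads (10473400 in RR, 10632785 in Mock and 10769990 in CC). Listed miRNAs took 20.5% of that total in RR, 23.2% in Mock and 16.3% in CC. Levels are in rpm, reads per 1000000 reads of this total, with exact 95% Poisson intervals. Intervals cover counting error only. PCR copies were not removed by molecular identifiers, so even for counting error the intervals may be too narrow.

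miR-26a-5p was an abundant miRNA of these cells, at rank 20 in Mock and 21 in both RR and CC. Its level was 1926 rpm in RR (1899 to 1953), 2190 rpm in Mock (2162 to 2218) and 1561 rpm in CC (1537 to 1585). The 3 intervals did not overlap, with Mock highest and CC lowest. The minor strand of the family, miR-26b-5p, stood at 22.5 rpm in RR (19.7 to 25.6), 30.1 rpm in Mock (26.9 to 33.6) and 16.7 rpm in CC (14.4 to 19.3). It ranked 160 of 886 detected miRNAs in RR, 134 of 895 in Mock and 164 of 867 in CC. Again the order was Mock, RR, CC, without overlap of the intervals. The listed miRNAs together took 23.2% of the total in Mock, 20.5% in RR and 16.3% in CC. This order was therefore not particular to miR-26. How many other miRNAs had intervals without overlap was not counted.

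miR-101-3p was as scarce as miR-26b-5p. It had 237 reads or 22.6 rpm in RR (19.8 to 25.7), 293 reads or 27.6 rpm in Mock (24.5 to 30.9) and 169 reads or 15.7 rpm in CC (13.4 to 18.2). The intervals of RR and Mock overlapped, and that of CC lay below both. Within each library the intervals of miR-101-3p and miR-26b-5p overlapped. Adapter ligation differs between miRNA sequences, so the order of levels between miRNAs is that of reads. The sources used here do not give the rule for reads that match both miR-26a-5p and miR-26b-5p. These differ by 1 base over their closest 18 bases, which leaves the level of the scarcer miR-26b-5p uncertain.

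**Figure D1:**
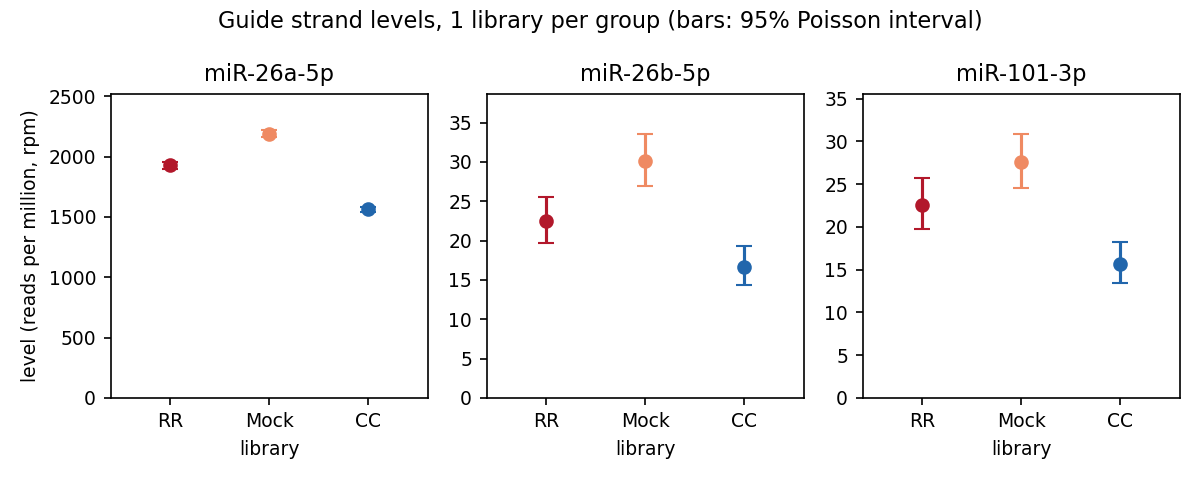
Levels of miR-26a-5p, miR-26b-5p and miR-101-3p in rpm, on axes that start at 0, in the RR, Mock and CC libraries. Points are single libraries and bars are 95% Poisson intervals. On this deposited scale Mock is highest and CC lowest in all 3 panels. Median-ratio scaling and percentages of miRNA reads change that order for miR-26a-5p only, and removal of the GC trend changes it for all 3. miR-26a-5p, at 1561 to 2190 rpm, is far above the other members, at 15.7 to 30.1 rpm.

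Reads of the set were almost wholly miR-26a-5p. It gave 97.7% of the reads of the set in RR, 97.4% in Mock and 98% in CC. Of the miR-26 guide reads, miR-26b-5p made up 1.16% in RR (exact binomial interval 1.01% to 1.31%), 1.36% in Mock (1.21% to 1.51%) and 1.06% in CC (0.911% to 1.22%). Such a share is free of the per-million scale. Relative to miR-26a-5p, miR-26b-5p was 1.09-fold in RR over CC, with 1 inside its interval of 0.895 to 1.34, and 1.28-fold in Mock over CC (1.06 to 1.55). For miR-101-3p the same ratios were 1.17 in RR over CC (0.954 to 1.43) and 1.25 in Mock over CC (1.03 to 1.52). Between RR and Mock, neither ratio had an interval that excluded 1, at 0.851 (0.716 to 1.01) for miR-26b-5p and 0.934 (0.783 to 1.11) for miR-101-3p. None of these ratios allows for GC content, which is 40.9% in miR-26a-5p and 33.3% in miR-26b-5p and miR-101-3p. With a linear trend on GC content removed, the log2 ratios in Mock over CC lay closer together. They were then 0.23 for miR-26a-5p, 0.33 for miR-26b-5p and 0.30 for miR-101-3p.

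The opposite arms of the hairpins, the strands normally discarded, were barely seen. miR-26a-1-3p, which only MIR26A1 gives, had 8 reads in RR, 6 in Mock and 1 in CC. From MIR26A2, miR-26a-2-3p had 9, 6 and 8 reads in RR, Mock and CC. miR-26b-3p had 3 reads in RR, 3 in Mock and 0 in CC, where the upper Poisson limit of a count of 0 was 0.343 rpm. Together the 3p arms made up 0.0842% of miR-26a reads in RR (0.0491% to 0.135%), 0.0515% in Mock (0.0266% to 0.09%) and 0.0535% in CC (0.0245% to 0.102%). Their sequences are given to show how the miR-26a loci can be told apart.
hsa-miR-26a-1-3p: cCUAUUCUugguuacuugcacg
hsa-miR-26a-2-3p: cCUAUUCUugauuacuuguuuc
They differ at 5 positions (G11A, C19U, A20U, C21U and G22C, counted from the 5′ end of miR-26a-1-3p), while their seeds, in capitals, are equal. The miR-26a-2-3p share of both was 52.9% in RR (27.8% to 77%), 50% in Mock (21.1% to 78.9%) and 88.9% in CC (51.8% to 99.7%), with intervals that all overlap. RR over CC for miR-26a-1-3p was 8.23-fold, but with 1 read in CC the interval ran from 1.10 to 365. The 5p arms of the miR-101 hairpins were sought by name and not found in the deposited table.

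RR over CC asks whether these repressors differ in cells selected for radioresistance. On the deposited scale all 3 were modestly higher in RR and none reached 2-fold. There, miR-26a-5p was 1.23-fold higher (1.21 to 1.26), miR-26b-5p 1.35-fold (1.11 to 1.65) and miR-101-3p 1.44-fold (1.18 to 1.77), where miR-26a-5p turned slightly lower under other scalings, at log2 ratios of -0.08 with median-ratio scaling and -0.03 as a percentage of miRNA reads. Of the 208 miRNAs averaging at least 10 rpm, a group that includes all 3, 87.5% had a ratio above 1, and 1.44% differed by 2-fold or more. At 1.5-fold or more, 14.4% of the 208 were counted and none of the 3. The median of all 208 was 0.36 on the log2 scale, and the set, with log2 ratios of 0.30, 0.41 and 0.50, lay within 0.15 of it. For miR-26a-5p 91 miRNAs had a lower ratio and 116 a higher one. The 3 miRNAs thus stood in the middle or upper part of a distribution that was itself shifted upward.

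By the titles and the design text, Mock over CC compares a single exposure with none. Cloning is described above for CC and not for Mock, so a difference in cloning could not be told apart from exposure. miR-26b-5p was 1.80-fold higher in Mock (1.5 to 2.17) and miR-101-3p 1.76-fold higher (1.45 to 2.13). On the deposited scale these ratios exceeded those of RR over CC, but without the GC trend the log2 ratios were 0.45 and 0.54 in RR over CC and 0.33 and 0.30 in Mock over CC. miR-26a-5p was 1.40-fold higher (1.38 to 1.43), or 0.49 on the log2 scale, but its log2 ratio was -0.02 as a percentage of miRNA reads. None of the 3 reached 2-fold, against 15.9% of the 208. At 1.5-fold or more, 2 of the 3 were counted, miR-26b-5p and miR-101-3p, against 46.2% of the 208, and 65.4% of the 208 were above 1. Neither was counted with median-ratio scaling (log2 ratios of 0.52 and 0.49), as a percentage of miRNA reads (0.32 and 0.29) or without the GC trend (0.33 and 0.30). The log2 ratios of miR-26b-5p and miR-101-3p, 0.81 and 0.77, were 0.53 and 0.49 above the median of all miRNAs, 0.28. Above miR-26b-5p stood 39 of the 208, and 44 above miR-101-3p.

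Between the irradiated libraries, RR over Mock, the deposited values of the set were lower in RR. miR-26a-5p had a ratio of 0.880 (0.863 to 0.896), miR-26b-5p of 0.749 (0.630 to 0.889) and miR-101-3p of 0.821 (0.689 to 0.978). As a percentage of miRNA reads, no member had an interval that excluded 1 in RR over Mock. Each log2 ratio changed sign once a GC trend was removed, to 0.10, 0.12 and 0.25. As deposited the log2 ratios were -0.19, -0.40 and -0.27, beside a median of 0.06. Of the 208 miRNAs 45.7% had a ratio below 1, 13.0% differed by 2-fold or more and 36.5% by 1.5-fold or more. At 2-fold and at 1.5-fold, 0 of the 3 were counted. This comparison shares its libraries with the other two, so its values are not further evidence.

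**Figure D2:**
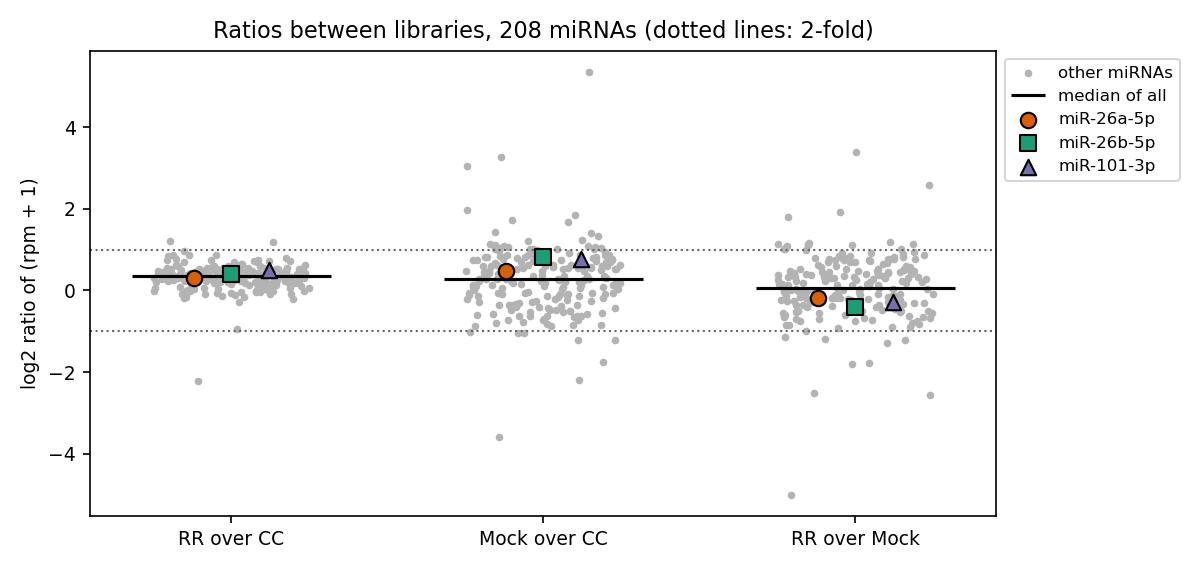
Log2 ratios of rpm + 1 for 208 miRNAs averaging at least 10 rpm, in RR over CC, Mock over CC and RR over Mock. Grey points are single miRNAs, spread sideways at random, the black line is their median and dotted lines mark 2-fold. The coloured members all lie inside the dotted lines, near the median in RR over CC (0.36) and above it in Mock over CC (0.28), where without the GC trend miR-26a-5p (0.23) and miR-101-3p (0.30) lie below the median (0.32) and miR-26b-5p (0.33) is level with it.

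GC content moved with these ratios. The members are poor in G and C, with 9 such bases of 22 in miR-26a-5p (40.9%) and 7 of 21 in miR-26b-5p and in miR-101-3p (33.3% each). All 3 fell in the lowest of 3 classes of the 208 miRNAs by GC content, 80 miRNAs of up to 45.5%. In that class the median log2 ratio was 0.36 in RR over CC, 0.65 in Mock over CC and -0.29 in RR over Mock, and in the highest class it was 0.36, -0.29 and 0.53. Across the 208 miRNAs, which share libraries and are not independent, Spearman's rho between GC content and log2 ratio came to 0.05 in RR over CC, -0.55 in Mock over CC and 0.60 in RR over Mock. A linear trend put miRNAs of 33.3% GC at 0.74 in Mock over CC. miR-26b-5p stood 0.07 above that trend and miR-101-3p 0.04 above, while miR-26a-5p differed from its own trend value, 0.52, by -0.03. The SD of the 208 about the trend was 0.79. In RR over CC, miR-101-3p lay 0.22 above the trend, miR-26b-5p 0.13 above and miR-26a-5p 0.00 from it, with an SD of 0.32. In RR over Mock the distances were 0.18 for miR-101-3p, 0.05 for miR-26b-5p and 0.03 for miR-26a-5p, with an SD of 0.73. Whether GC content of the miRNA accounts for these differences was not tested.

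**Figure D3:**
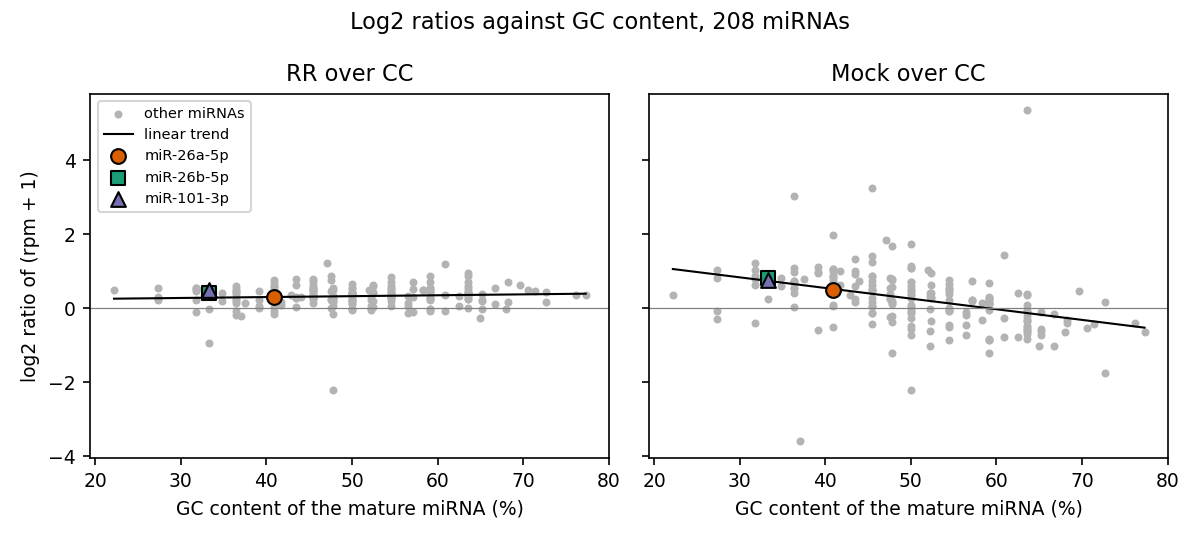
Log2 ratio of rpm + 1 against GC content of the mature miRNA, for RR over CC and Mock over CC on the same vertical scale. Grey points are the other miRNAs of the 208, the line is a linear trend and coloured symbols are the members. The trend is nearly level in RR over CC (rho 0.05) and falls in Mock over CC (rho -0.55), where all 3 members lie within 0.07 of it.

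As a percentage of miRNA reads, miR-26a-5p hardly differed between the libraries. It took 0.939% of the miRNA reads in RR (exact interval 0.926% to 0.952%), 0.945% in Mock (0.933% to 0.957%) and 0.96% in CC (0.946% to 0.975%). RR over CC was 0.978-fold on this scale (0.958 to 0.998) and RR over Mock 0.993-fold (0.975 to 1.01). The per-million total holds reads outside the listed miRNAs, whose part differed between libraries. miR-101-3p took 0.011% of the miRNA reads in RR, 0.0119% in Mock and 0.00965% in CC. On that scale it was 1.14-fold in RR over CC, with 1 inside its interval of 0.934 to 1.40, and 1.23-fold higher in Mock over CC (1.02 to 1.5). miR-26b-5p was 1.07-fold in RR over CC (0.877 to 1.30) and 1.26-fold higher in Mock over CC (1.05 to 1.53). In RR over Mock neither interval excluded 1, at 0.846 (0.712 to 1.00) for miR-26b-5p and 0.927 (0.778 to 1.10) for miR-101-3p. So on the scale of miRNA reads, counting error alone covered the differences of both scarce strands between RR and CC.

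**Figure D4:**
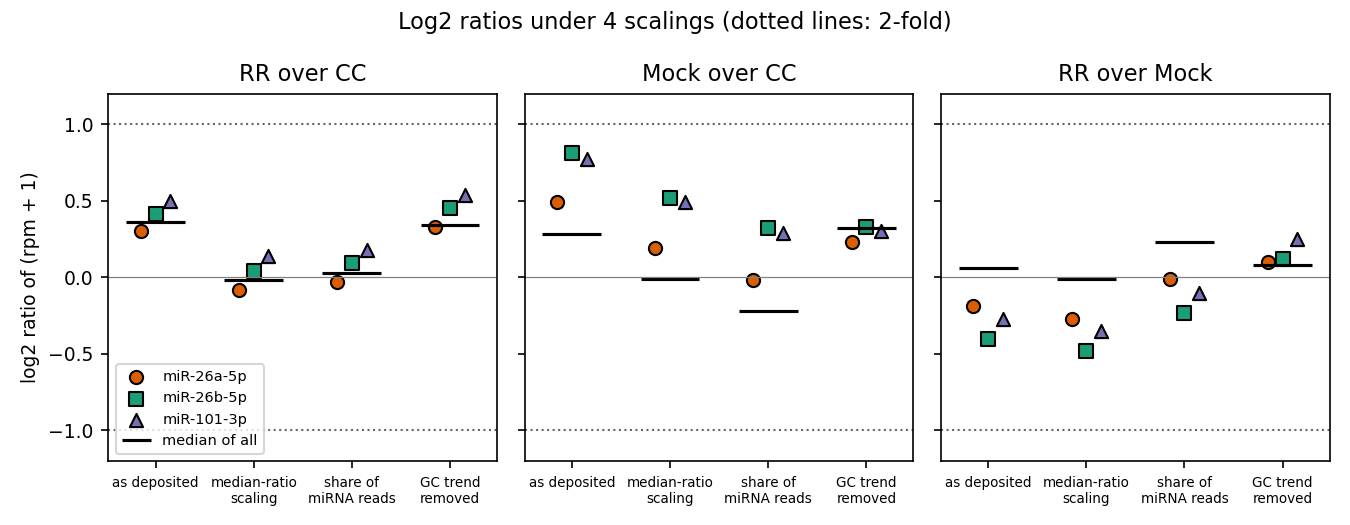
Log2 ratios of rpm + 1 for the members under 4 scalings, in RR over CC, Mock over CC and RR over Mock. Black lines are the median of the 208 miRNAs and dotted lines mark 2-fold. No member passes 2-fold under any of the 4, and miR-26a-5p in RR over CC lies at 0.30 as deposited, -0.08 with median-ratio scaling, -0.03 as a percentage of miRNA reads and 0.33 with the GC trend removed.

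Other miRNAs reported to repress EZH2 were led by members of the let-7 family, which also repress RAS genes. Of 9 listed, 7 were in the table and 4 had a mean of 10 rpm or more. miR-98-5p, a let-7 relative, had 353 rpm in RR, 495 rpm in Mock and 240 rpm in CC and was 2.06-fold higher in Mock than in CC (1.97 to 2.16). let-7c-5p had 92.6 rpm in RR, 215 rpm in Mock and 103 rpm in CC. Members of the let-7 family are nearly identical in sequence, so the level of each is uncertain. These were the 2 of 4 past 2-fold in Mock over CC, against 15.9% of the 208, and neither was under median-ratio scaling (0.74 and 0.75 on the log2 scale), while let-7a-5p and let-7b-5p, at 1.61-fold and 0.915-fold, were not. None of the 4 was past 2-fold in RR over CC, against 1.44% of the 208, with let-7a-5p at 1.42-fold and let-7b-5p at 1.45-fold. In RR over Mock let-7c-5p alone of the 4 was past 2-fold, against 13.0% of the 208. It was 2.32-fold lower (2.15 to 2.50), but not past 2-fold without the GC trend, at a log2 ratio of -0.92. Medians of the 4 log2 ratios were 0.52, 0.86 and -0.33 in RR over CC, Mock over CC and RR over Mock, beside 0.36, 0.28 and 0.06 for all 208.

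The scarce members of that list were seen mostly in Mock. miR-138-5p, a repressor of EZH2 in several carcinomas, had 11 reads in RR, 29 in Mock and 12 in CC. miR-144-3p, which shares the bases ACAGUA with miR-101-3p, had 0 reads in RR, 26 in Mock (2.45 rpm) and 0 in CC. Against the floor of 3 reads per library, that is at least 8.54-fold lower in RR than in Mock, and at least 8.78-fold higher in Mock than in CC. With the counting error of the 26 reads included, the exact 95% limits nearest to 1 were 6.46-fold and 6.64-fold. miR-217-5p had 2 reads in Mock and 0 in RR and in CC. miR-124-3p and miR-214-3p were sought by name and not found in the deposited table. miR-144-3p is also a marker of red blood cells, and the other erythroid markers, miR-486-5p and miR-451a, were higher in Mock too.

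**Figure D5:**
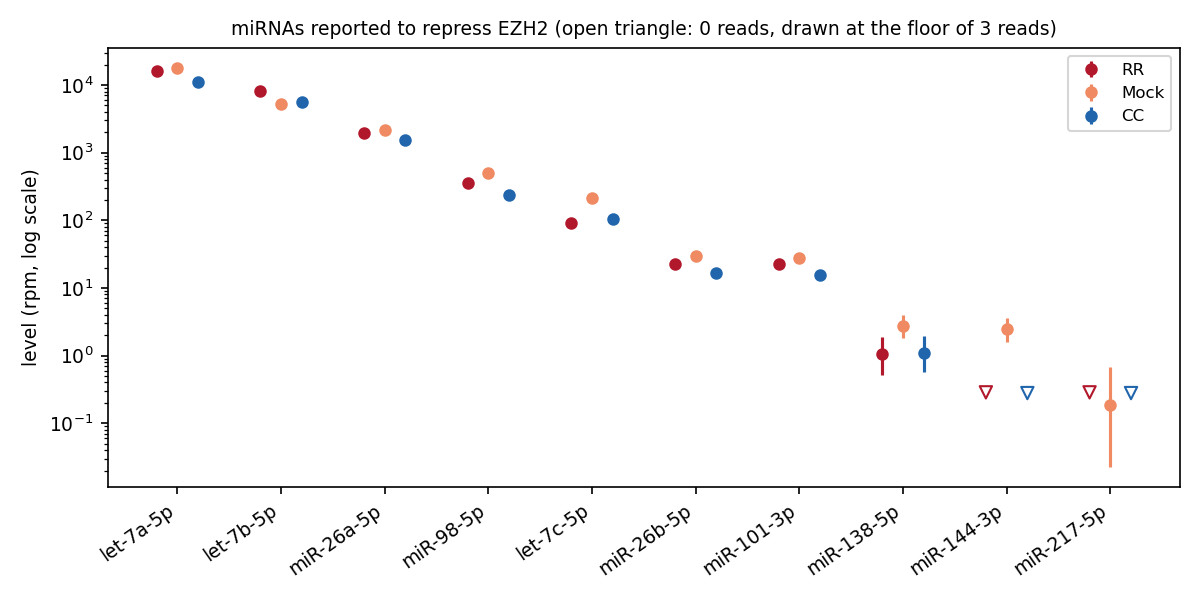
Levels in rpm, on a log axis, of 10 miRNAs reported to repress EZH2, in the order of their mean, for RR, Mock and CC from left to right within each miRNA. Bars are 95% Poisson intervals and open triangles mark 0 reads, drawn at the floor of 3 reads. miR-26a-5p ranks below let-7a-5p and let-7b-5p, miR-26b-5p and miR-101-3p lie between 15.7 and 30.1 rpm, and miR-144-3p has reads in Mock (2.45 rpm) and none in RR or CC.

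All 5 miRNAs listed as targeting the repair kinases ATM or ATR were in the table, and 4 had a mean of 10 rpm or more. Of these 4, none passed 2-fold on the log2 scale of rpm + 1 in any of the 3 comparisons. Of the 208, 1.44% did in RR over CC, 15.9% in Mock over CC and 13.0% in RR over Mock. miR-100-5p had 8626 rpm in RR, 9892 rpm in Mock and 6483 rpm in CC, while miR-185-5p had 219, 242 and 149 rpm. miR-18a-5p, of the miR-17 cluster, had 10.8 rpm in RR, 17.7 rpm in Mock and 8.82 rpm in CC, with a log2 ratio of 0.93 in Mock over CC that was 1.00 with a pseudocount of 0.1. The log2 ratios of the 4 had medians of 0.34 in RR over CC, 0.65 in Mock over CC and -0.28 in RR over Mock, close to those of the miR-26 and miR-101 set at 0.41, 0.77 and -0.27. miR-181a-5p differed in order from these, with 358 rpm in RR, 460 rpm in Mock and 400 rpm in CC, with a ratio of 0.895 in RR over CC (0.856 to 0.935). miR-421, with a mean under 10 rpm, had 60 reads in RR, 119 in Mock and 51 in CC. It was 2.36-fold higher in Mock than in CC (1.69 to 3.35), or 1.09 on the log2 scale of rpm + 1.

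The nearest patterns were sought among the 93 miRNAs averaging at least 100 rpm, by distance in the plane of the log2 ratios RR over CC and Mock over CC, which rest on 3 libraries. Closest to miR-26a-5p were miR-200a-5p (distance 0.030), miR-532-5p (0.062) and miR-200b-3p (0.075). miR-26b-5p had miR-9-5p (0.022), miR-30a-5p (0.069) and miR-22-3p (0.085) as neighbours, and miR-101-3p had miR-22-3p (0.047), miR-24-3p (0.088) and let-7a-5p (0.089). miR-22-3p had 256 rpm in RR, 312 rpm in Mock and 185 rpm in CC. Within the set, miR-26b-5p and miR-101-3p, which share no seed and no locus, lay 0.099 apart, and miR-26a-5p lay 0.341 from miR-26b-5p and 0.349 from miR-101-3p. These distances describe 3 libraries and carry no test. Distances of miR-26b-5p and miR-101-3p to each other and to their neighbours are small beside counting error. Their RR over CC intervals were 1.11 to 1.65 for miR-26b-5p and 1.18 to 1.77 for miR-101-3p. The order of neighbours of these scarce strands is therefore not resolved.

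Of the 4 squamous epithelial markers, miR-205-5p and miR-200c-3p were abundant in every library, and miR-203a-3p and miR-141-3p lay between 16.6 and 39.2 rpm. Their sum was 43898 rpm in RR, 28150 rpm in Mock and 37723 rpm in CC. In Mock over CC miR-205-5p was lower, at 0.546-fold, and the other 3 had ratios of 1.04 to 2.07. Markers of other cell types moved unevenly. The 3 erythroid markers summed to 12.2 rpm in RR, 408 rpm in Mock and 9.47 rpm in CC, with miR-144-3p at 0 in RR and in CC. Leukocyte markers, 3 of 4 in the table, summed to 0.0955 rpm in RR, 1.98 rpm in Mock and 0.0929 rpm in CC, and 2 of those 3 had no reads in RR, nor did 2 in CC. Muscle markers (3 of 3) summed to 408, 345 and 341 rpm in RR, Mock and CC, most of it miR-1-3p. Of these, miR-206 had 3.63 rpm in RR, 25.5 rpm in Mock and 1.76 rpm in CC. It was 14.4-fold higher in Mock than in CC (9.07 to 24.4). The other muscle markers were not higher in Mock. In Mock over CC miR-1-3p had a ratio of 0.942 (0.899 to 0.987) and miR-133a-3p of 0.645 (0.212 to 1.82). Endothelial markers (2 of 2) summed to 81.9, 66.9 and 55.2 rpm in RR, Mock and CC, mesenchymal markers (3 of 4) summed to 6.49, 5.64 and 6.41 rpm, and the hepatic miR-122-5p stood at 2.96, 5.45 and 4.46 rpm. The part of such RNA in the levels of miR-26 and miR-101 was not tested. Fewer cells of a type and less RNA per cell cannot be told apart in bulk libraries.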

How the data were processed

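Total RNA was turned into small RNA libraries by adapter ligation, reverse transcription and PCR with size selection, per the labels' protocols. Bowtie and GRCh38 are named in the submitters' processing notes, without a role. The trimming, miRNA reference and rule for reads matching several miRNAs are steps not given in the sources used here. The deposited table, in values the authors call TPM, behaves as RPM: 100% of values were whole multiples (tolerance 0.01 reads) of the worth of a single read in that library, which was 0.0955 rpm for RR, 0.0940 rpm for Mock and 0.0929 rpm for CC. Reads and totals were recovered from that step.

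With 1 library per group no count model could be fitted. Columns were matched to libraries by the treatment tag. Rpm are given with exact 95% Poisson intervals and ratios with limits from the Clopper-Pearson share of reads, so that an interval compares 2 libraries and not the conditions. Ratios relative to miR-26a-5p carry exact conditional limits of the odds ratio. Log2 ratios are of rpm + 1, a pseudocount that understates changes of low miRNAs. miRNAs were counted where they averaged at least 10 rpm across the 3 libraries, and 2-fold is a log2 ratio of 1.

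Named miRNAs are the members, the opposite arms, other miRNAs reported to repress EZH2 or to target ATM or ATR, seed relatives, cell type markers and the 3 nearest patterns per member. The members and lists were chosen with earlier results of these data known. 3′ UTRs were taken from GENCODE 29 principal transcripts, 1 a gene, and set beside those of 0.8 to 1.25 times the length. Alternatives were other pseudocounts, filters, a 1.5-fold threshold, median-ratio scaling, percentages of miRNA reads and removal of a linear GC trend centred on 50%. A filter over only the libraries compared was added after the data were seen. The computation was tested on simulated reads. Intervals came from scipy 1.17.1 and figures from matplotlib 3.10.9, under Python 3.11.15 with pandas 2.3.3 and numpy 2.4.6.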

Additional observations from a re-analysis of the deposited data

How the results depend on the processing

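With 1 library a group no library could be left out, and no paired analysis was possible because no group has a second library. Pseudocounts of 0.1 and 10 rpm moved none of the 9 member ratios beyond its counting interval, and of 45 values over 5 alternatives 20 moved beyond it. Values below are log2 ratios for miR-26a-5p, miR-26b-5p and miR-101-3p in that order. With median-ratio scaling they were -0.08, 0.04 and 0.14 in RR over CC and 0.19, 0.52 and 0.49 in Mock over CC. In RR over Mock they were -0.27, -0.48 and -0.35. As a percentage of miRNA reads they were -0.03, 0.09 and 0.18 in RR over CC and -0.02, 0.32 and 0.29 in Mock over CC. In RR over Mock that scale gave -0.01, -0.23 and -0.10. Without the GC trend they were 0.23, 0.33 and 0.30 in Mock over CC and 0.10, 0.12 and 0.25 in RR over Mock. By construction the first 2 scalings move all miRNAs of a comparison almost alike, and removing the GC trend moves miRNAs by their GC content.

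The count of members past 2-fold was 0 in each comparison, and under the alternatives it changed only at a threshold of 1.5-fold, to 2 in Mock over CC. With a mean of 100 rpm or more only miR-26a-5p was left. Counts over the 208 miRNAs, higher and lower, were 2 and 1 in RR over CC, 25 and 8 in Mock over CC and 17 and 10 in RR over Mock. They became 0 and 2, 10 and 18, and 12 and 10 with median-ratio scaling, and 0 and 2, 7 and 31, and 25 and 8 as a percentage of miRNA reads. Without the GC trend they were 2 and 1, 17 and 4, and 7 and 7. With a pseudocount of 10 they were 0 and 1, 13 and 3, and 8 and 8. A mean of 1 or more (390 miRNAs) gave 5 and 2, 44 and 13, and 31 and 19. No filter (1149 miRNAs) gave 6 and 2, 46 and 14, and 33 and 24. A mean of 100 or more (93 miRNAs) gave 0 and 0, 11 and 1, and 6 and 5. A threshold of 1.5-fold over the 208 gave 28 and 2, 70 and 26, and 46 and 30. A filter over the libraries compared gave 2 and 2 in RR over CC (207 miRNAs). Counting error limits miR-26b-5p and miR-101-3p, with 169 to 320 reads a library, far more than miR-26a-5p.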
